A study of Rangifer tarandus with 8 samples.

Results

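The chemokine ligand and receptor genes of the cattle annotation used as the reference of this reindeer study were described by their place and structure. Members were the protein coding gene records whose first name field was a numbered CCL, CXCL, CX3CL or XCL symbol (ligands) or a numbered CCR, CXCR, CX3CR, XCR or ACKR symbol (receptors). The rule found 55 genes of 21861 protein coding genes, of which 33 were ligands and 22 were receptors. Each symbol was held by 1 gene. Genes with other symbols or with only an Ensembl identifier were not members, whatever they may encode.

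Chemokines are small, mostly secreted proteins that set the direction in which leukocytes move. They are named after the spacing of the cysteines near their start (C, CC, CXC and CX3C), and they act through receptors that cross the membrane several times and couple to G proteins of the inhibitory type. The atypical receptors, whose symbols start with ACKR, bind chemokines without that coupling and take them up or hold them. In wounded skin, chemokines draw first neutrophils and then monocytes and lymphocytes into the tissue.

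The study profiled open chromatin in single cells (single-cell ATAC-seq) of adult reindeer (Rangifer tarandus) skin in 8 libraries of 7 groups. The assay is named after the sample titles, whereas the extraction protocol in the labels describes a kit for 3' cDNA. Velvet, the skin of the growing antler, and back skin were each taken unwounded (day 0) and 7 days after excisions of 12 mm, with 1 library per group. Velvet grafted to the back was taken at 6 weeks (2 libraries, from 2 animals), 3 months and 6 months after grafting (1 library each), and the libraries held 1006 to 20002 recovered cells per the labels. The epidermis had been removed with dispase and dead cells by sorting, the reads were aligned to the cattle genome per the series text, and accessibility values were not analysed here. All positions below are therefore cattle positions on ARS-UCD1.2. The annotation belongs to no sample and lists every gene it holds, so values carry no replicate error and no test was made. Many counts of members are set beside the same count over all protein coding genes. Others, such as the number of clustered genes, have no such count beside them and are description only.

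The members lay on 16 chromosomes. Ligands alone were found on 8 chromosomes, receptors alone on 6, and both on chromosomes 2 and 19. Of all 726 combinations of a member ligand with a member receptor, 23 (3.17%) lay on 1 chromosome. Whether the kinds lay apart more often than other coding genes was not tested. Chromosome 19 held the most members, 12 among 1204 protein coding genes, and 10 of them were ligands. Chromosome 22 held 11 members among 544 protein coding genes, all of them receptors. Chromosome 6 held 8 among 592, all of them CXC ligands. Members were joined into a cluster where the gap between neighbouring gene bodies was at most 500 kb. This gave 10 clusters of 2 to 7 members, with 35 clustered and 20 lone genes. The widest gap inside a cluster was 113 kb and the narrowest gap between a cluster and the next member was 1.27 Mb. Of the ligands, 72.7% (24 of 33) were clustered, and of the receptors 50% (11 of 22). The clusters were 7 of ligands and 3 of receptors, and none held both kinds.

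**Figure D1:**
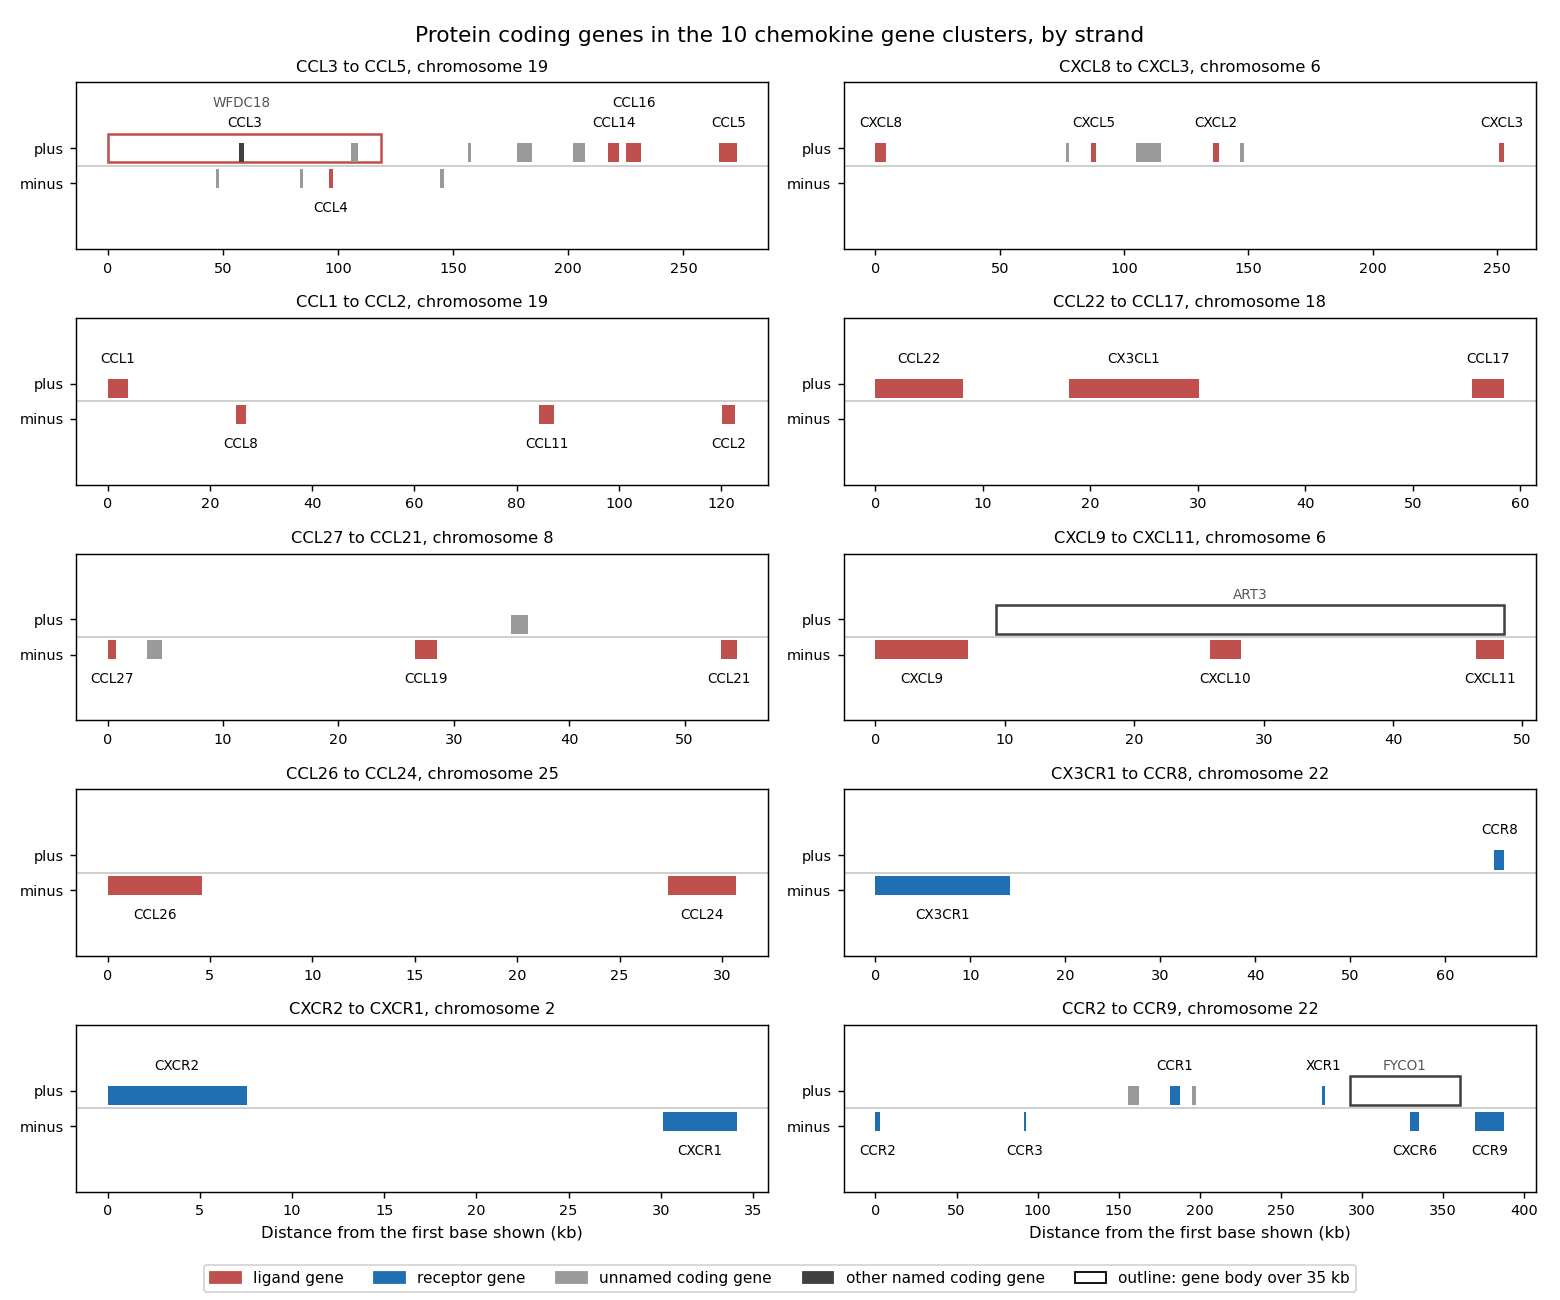
Protein coding genes in each of the 10 clusters, drawn by distance from the first base shown (horizontal axis, kb, own scale per panel) on the plus or minus strand (vertical axis). Ligand genes are red, receptor genes blue, unnamed coding genes grey and other named coding genes black, and outlined boxes are long gene bodies (that of ART3 is drawn only to the last base of the cluster and runs on beyond it). The CXCL8 to CXCL3 cluster lies wholly on the plus strand, and CCR2 to CCR9 are split between both strands.

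CC ligands of chromosome 19 formed a pair of neighbouring clusters, 1.27 Mb apart. The first ran from 14243466 to 14516896 (273 kb) and held, in order, CCL3, CCL4, CCL14, CCL16 and CCL5. CCL3, CCL4 and CCL5 encode inflammatory ligands made by macrophages and T cells. CCL3 (ENSBTAG00000025250) had an annotated body of 119 kb on the plus strand, the longest of all members, and it contained the whole of CCL4 (ENSBTAG00000025257, 14339700 to 14341265, minus strand). That length came from 1 of its 2 transcripts, which had an intron of 82.8 kb. The other CCL3 transcript, which had the longer coding sequence, covered 1.98 kb from 14360182 to 14362161. By that transcript CCL3 lay 18.9 kb to the right of CCL4, head to head with it, so the order of these genes depended on the transcript taken. The cluster then ran from 14339700 to 14516896 (177 kb) and held 5 unnamed coding genes in place of 7.

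The second cluster of chromosome 19 ran from 15782652 to 15905368 (123 kb) and held CCL1, CCL8, CCL11 and CCL2. CCL2 and CCL8 encode monocyte attractants, CCL11 (eotaxin) attracts eosinophils, and CCL1 is the ligand of CCR8. CCL1 (ENSBTAG00000008832, 15782652 to 15786668) was on the plus strand, and the other 3 were on the minus strand. No other gene lay inside this cluster. Its nearest named coding neighbours outside were TMEM132E at 303 kb and ASIC2 at 117 kb.

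CXC ligands of chromosome 6 also formed a pair of clusters, 1.79 Mb apart. CXCL8, CXCL5, CXCL2 and CXCL3, all attractants of neutrophils through CXCR2, lay between 88810418 and 89063360 (253 kb), all on the plus strand. The gap between CXCL2 and CXCL3 was 113 kb, the widest of any cluster. CXCL9, CXCL10 and CXCL11, the interferon-induced ligands of CXCR3, lay between 90856295 and 90904851 (48.6 kb), all on the minus strand. Their gaps were 18.6 and 18.2 kb. The bodies of CXCL10 and CXCL11 lay within that of ART3, a gene of 142 kb on the opposite strand. CXCL13, the B cell attractant, was 1.38 Mb beyond CXCL11 and stood alone.

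The other ligand clusters were small. CCL22, CX3CL1 and CCL17 lay on the plus strand of chromosome 18 between 25365218 and 25423723 (58.5 kb). CCL17 and CCL22 share the receptor CCR4, whereas CX3CL1 (fractalkine) is a membrane-anchored ligand of CX3CR1 that lay between them. CCL27, CCL19 and CCL21 lay on the minus strand of chromosome 8 between 76027403 and 76081928 (54.5 kb). CCL19 and CCL21 guide T cells and dendritic cells through CCR7, and CCL27 is a keratinocyte chemokine that draws T cells to skin through CCR10. CCL27 (ENSBTAG00000014908) had the shortest body of all members, 0.738 kb, and its end was 39 bases (0.039 kb) from the body of IL11RA, a cytokine receptor gene. CCL26 and CCL24, eosinophil attractants that act through CCR3, lay on the minus strand of chromosome 25 with a gap of 22.8 kb.

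The largest cluster was one of receptors. It included CCR2, CCR3, CCR1, XCR1, CXCR6 and CCR9, which lay in this order on chromosome 22 between 53043751 and 53431445. They serve monocytes and T cells (CCR1, CCR2), eosinophils (CCR3), cross-presenting dendritic cells (XCR1), resident T cells (CXCR6) and gut-homing lymphocytes (CCR9). CCR1 and XCR1 were on the plus strand, and CCR2, CCR3, CXCR6 and CCR9 on the minus strand. The gaps from CCR2 to CCR3, CCR3 to CCR1 and CCR1 to XCR1 were 88.8, 89.0 and 88.0 kb, whereas that from XCR1 to CXCR6 was 53.4 kb and that from CXCR6 to CCR9 34.4 kb. CXCR6 (ENSBTAG00000015708, 53373617 to 53378958) lay wholly within the body of FYCO1, an autophagy gene of 67.5 kb on the other strand.

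The other receptor clusters were pairs. CX3CR1, the fractalkine receptor of monocytes and microglia, and CCR8, a receptor of regulatory and skin T cells, lay 51.0 kb apart and head to head on chromosome 22. CXCR2 and CXCR1, the neutrophil receptors for CXCL8, lay 22.6 kb apart and tail to tail on chromosome 2, between 106185020 and 106219158. Chromosome 22 also carried CCR4 and ACKR2 as lone genes. ACKR2, a scavenger of inflammatory CC ligands, was 2.24 Mb from CCR8.

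The 20 lone genes were 9 ligands and 11 receptors. On 7 of the 16 chromosomes a lone gene was the only member. These were ACKR4, CXCR5, XCL1, CCL28, CXCR3, CXCL12 and CCR6. Among the other 13, the distance to the nearest member ran from 1.38 Mb (CXCL13) to 105 Mb (ACKR1 and ACKR3, which share chromosome 3). Lone ligands included CXCL12, the ligand of CXCR4 and ACKR3 that holds stem cells and leukocytes in place (chromosome 28, 45022356 to 45051627). They also included CXCL14, an epithelial chemokine (chromosome 7, 47070286 to 47078939). The nearest named coding gene to CXCL12 was TMEM72 at 357 kb. The other lone ligands were CCL20, CCL25, CCL28, CXCL13, CXCL16, CXCL17 and XCL1. All 4 atypical receptors were lone genes, as were CCR4, CCR6, CCR7, CCR10, CXCR3, CXCR4 and CXCR5.

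Neighbouring members of a cluster shared a strand more often among ligands than among receptors. Over the 25 neighbouring pairs, 18 (72%) shared a strand, 3 were head to head and 4 tail to tail, where 50.9% of all neighbouring protein coding genes on placed chromosomes shared one. Among ligands 14 of 17 pairs (82.4%) shared a strand and among receptors 4 of 8 (50%). The tail to tail pairs included CCL3 and CCL4, whose order depended on the transcript taken. With bodies by the transcript with the longest coding sequence, 19 of 25 pairs shared a strand, 3 were head to head and 3 tail to tail. Pairs of members are not always adjacent genes. In 14 pairs no other coding gene started between the members, and 11 of those shared a strand. The difference between ligands and receptors was not tested, since pairs within a cluster share genes.

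The gap between neighbouring members had a median of 32.8 kb, 25.4 kb for ligands (0 to 113 kb) and 52.2 kb for receptors (up to 89.0 kb). Over all 21600 neighbouring coding pairs the median gap was 14.8 kb, and over the 14 adjacent member pairs it was 24.1 kb. CCL14 and CCL16, ligands found in blood and liver, were the closest pair that did not overlap, at 2.80 kb.

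**Figure D2:**
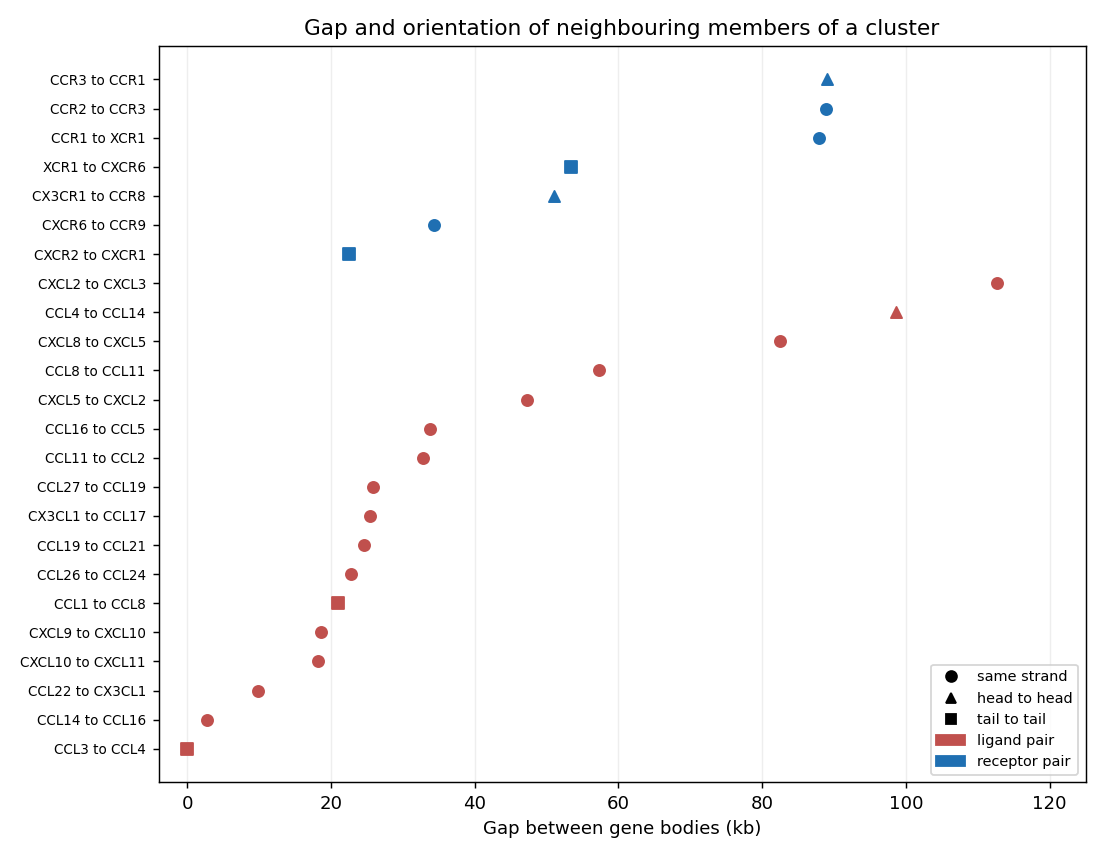
Gap between the bodies of neighbouring members of a cluster (horizontal axis, kb), one point per named pair (vertical axis), with ligand pairs in red and receptor pairs in blue. The symbol gives the orientation. CCL3 to CCL4 is at 0 because the annotated body of CCL3 contains CCL4, and the widest gap is that of CXCL2 to CXCL3 at 113 kb; the gap of CCL4 to CCL14 is counted from the end of CCL3.

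Ligands and receptors did not overlap in the number of coding exons, the exon parts that are translated, when these were counted in the transcript with the longest coding sequence. Over all transcripts they did, since XCL1 had another transcript with 2 coding exons and CCR7 one with 3. Each of the 33 ligands had 3 to 5 coding exons (median 3) and each of the 22 receptors 1 or 2 (median 2). Of the receptors, 9 (40.9%) had a single coding exon, where 14.4% of all protein coding genes did, and of the ligands none did. Exactly 3 coding exons were found in 17 ligands, 4 in 14 and 5 in 2. Thus 31 of 33 had 3 or 4, against 15.7% of all protein coding genes. The median over all protein coding genes was 6.

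Most CC ligands had 3 coding exons and most CXC ligands 4. Of 19 CC ligands 14 had 3, and the others were CCL16, CCL19, CCL20 and CCL21 with 4 and CCL25, the thymus and gut ligand of CCR9, with 5. Of 12 CXC ligands 10 had 4, and the others were CXCL2 with 3 and CXCL16 with 5. XCL1 and CX3CL1 had 3 each. CXCL2 had 4 exons in all, and its last exon held only the end of the stop codon and the 3' untranslated region. In the clusters of chromosomes 18, 19 and 25 the number was 3 in all members but CCL16.

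**Figure D3:**
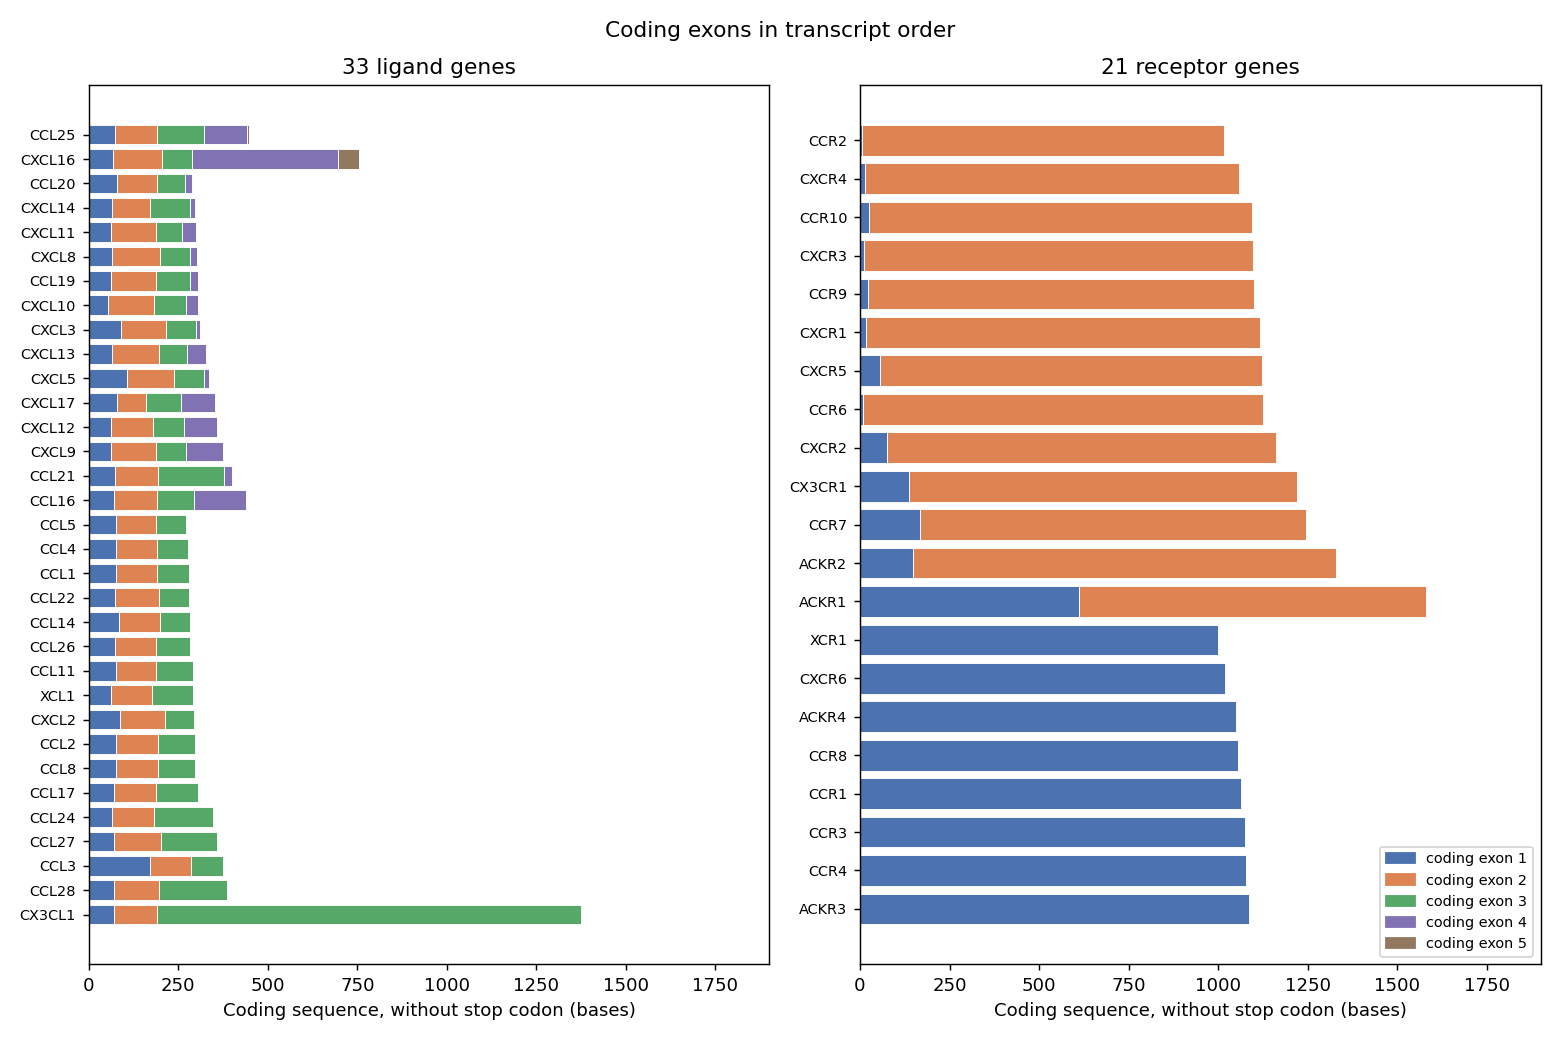
Length of each coding exon (horizontal axis, bases, coding sequence without the stop codon) in transcript order for the ligand genes (left) and receptor genes (right), one bar per gene, with colours for the order of the exons. Ligands are split into 3 to 5 short exons except the last exon of CX3CL1 (1183 bases) and an exon of 408 bases in CXCL16, and receptors consist of 1 long exon, in 13 genes preceded by a shorter one.

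The coding sequence of ligands was short. It had a median of 306 bases (273 to 1374) against 1090.5 bases for receptors (999 to 1581) and 1146 bases for all protein coding genes. In 32 of 33 ligands it was shorter than in the shortest receptor, XCR1 at 999 bases. The exception was CX3CL1, at 1374 bases and 458 residues, whose last coding exon of 1183 bases made up 86.1% of the coding sequence. CXCL16, the other membrane-anchored ligand, followed at 252 residues with a coding exon of 408 bases. The shortest was CCL5 (RANTES), at 91 residues. All 55 members had an annotated start and stop codon.

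The second coding exon was the most even part of the ligands. It measured 106 to 139 bases in 32 ligands, with a median of 118 over all 33, and 81 bases in CXCL17. The first coding exon ran from 55 bases in CXCL10 to 172 in CCL3, and in the 32 ligands other than CCL3 it stayed between 55 and 106. In 6 ligands it was exactly 76 bases. These were CCL1, CCL2, CCL4, CCL5, CCL8 and CCL11, all on chromosome 19. In CXCL3, CXCL5 and CXCL8 the third coding exon was 84 bases, and the last coding exon was 13 bases in CXCL3, CXCL5 and CXCL14.

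Some ligands matched another gene in the length of every coding exon. CCL2 and CCL8 both had coding exons of 76, 118 and 103 bases. CCL1 matched the unnamed gene ENSBTAG00000003289 of the other cluster on chromosome 19 (76, 115 and 88 bases). CXCL3 matched GRO1, which lay 9.25 kb beyond it (91, 124, 84 and 13 bases). GRO1 is a former human symbol of the neutrophil chemokine CXCL1. Thus 4 of 33 ligands had such a match, where 2.26% of all protein coding genes with 3 or more coding exons did. Equal lengths do not show equal sequences, and sequences were not analysed here.

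The coding introns of ligands interrupted the reading frame at the same positions of the codon. Phase 0 means that an intron falls between codons, phase 1 after the first base of a codon and phase 2 after the second base. The first coding intron was in phase 1 in 33 of 33 ligands (38.7% of all protein coding genes with that intron), and the second was in phase 2 in 32 of 33 (22.9%). The combination was thus found in 32 ligands, whereas 8.82% of all protein coding genes with 3 or more coding exons had it. It was shared by clustered and lone ligands and by all 4 cysteine classes, of which C (XCL1) and CX3C (CX3CL1) held 1 ligand each. CXCL17, a mucosal protein, was the exception, with phases 1, 1 and 1 and 4 coding exons. In the 14 ligands with 4 coding exons the third intron was in phase 2 in 10, in phase 0 in CXCL9, CXCL11 and CCL19, and in phase 1 in CXCL17.

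**Figure D4:**
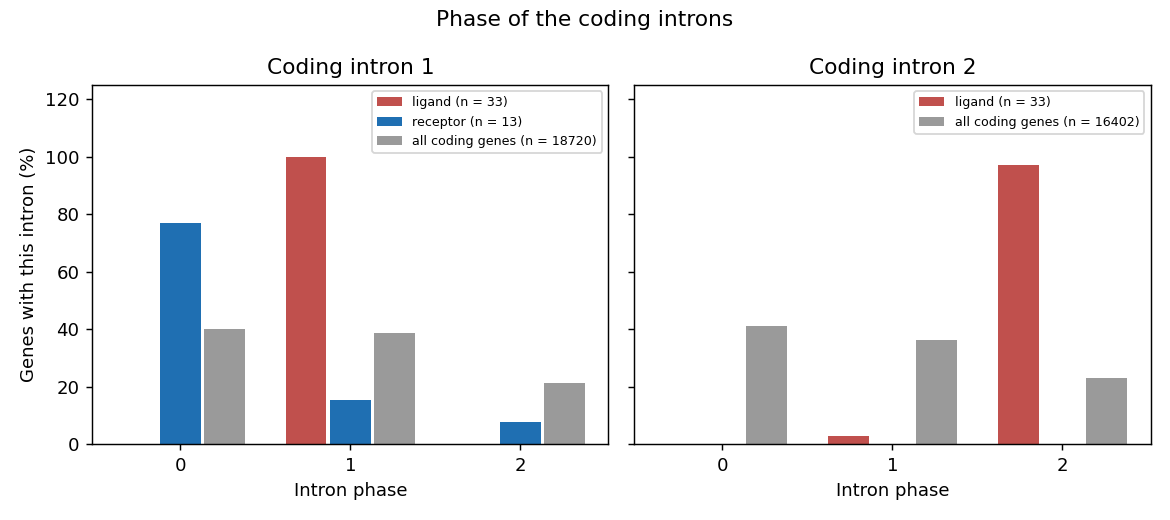
Share of genes (vertical axis, %) whose first (left) or second (right) coding intron is in phase 0, 1 or 2 (horizontal axis), for ligands (red), receptors (blue) and all protein coding genes (grey), among genes that have the intron. All 33 ligands have a first coding intron in phase 1 and 97.0% a second one in phase 2; receptors have no second coding intron.

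Receptors carried nearly all of their coding sequence in 1 exon. In the 13 receptors with 2 coding exons the second was always the longer, at 969 to 1181 bases. It held 80% or more of the coding sequence in 12 of 13, against 53.5% of all protein coding genes with 2 coding exons. The first coding exon was under 30 bases in 7 of them. It measured 5 bases in CCR2, 9 in CCR6, 12 in CXCR3, 15 in CXCR4, 16 in CXCR1, 21 in CCR9 and 24 in CCR10. The intron behind it was in phase 0 in 10 of 13 receptors, where 35.8% of all protein coding genes with 2 coding exons had phase 0. The others were CXCR1 and ACKR2 in phase 1 and CCR2 in phase 2.

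ACKR1, the Duffy receptor of red cells and venules, stood apart. Its first coding exon was 612 bases and its coding sequence, at 527 residues, was the longest of the receptors, whose median was 363.5. These lengths rest on the 1 coding transcript annotated for ACKR1, which had no annotated 5' untranslated region. CXCR4, the CXCL12 receptor, had a first coding exon of 15 bases and a second of 1044 (chromosome 2, 61250082 to 61253877). CCR7, the lymph node homing receptor, had 2 coding exons in the transcript with the longest coding sequence and 3 in its other one. In CX3CR1, 1 of 2 transcripts had a single coding exon.

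The 9 receptors with a single coding exon included CCR1, CCR3, CCR4, CCR8, CXCR6, XCR1, ACKR3 and ACKR4. Their coding exons were close in length, at 999 to 1086 bases. Of these, 6 were clustered and 3 lone. The share was 54.5% of the clustered and 27.3% of the lone receptors, a difference of 6 against 3 genes among 11 each. ACKR3, the scavenger of CXCL12, and CCR4 lay over 1 Mb from any other member and had 2 and 3 exons in all. In CCR3, CCR8, XCR1 and ACKR4 the coding exon was the only exon. These were 4 of 22 receptors, where 2738 of all 21861 protein coding genes had a single exon.

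Member genes were short. Gene bodies had a median of 3.70 kb in ligands (0.738 to 119 kb) and 5.05 kb in receptors (1.00 to 61.1 kb), against 14.0 kb over all protein coding genes. Measured from the first to the last coding base the order of the kinds turned, with medians of 2.78 kb in ligands and 1.99 kb in receptors. Clustered ligands had a median of 2.95 kb (0.738 to 119 kb) and lone ligands 6.56 kb (3.40 to 29.3 kb). Clustered receptors had a median of 4.03 kb (1.00 to 18.1 kb) and lone receptors 5.15 kb (1.97 to 61.1 kb). The ranges of clustered and lone genes overlapped in both kinds. The longest bodies after CCL3 were those of ACKR2 (61.1 kb), CXCL12 (29.3 kb) and CCL28 (28.6 kb), a mucosal ligand of CCR10.

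**Figure D5:**
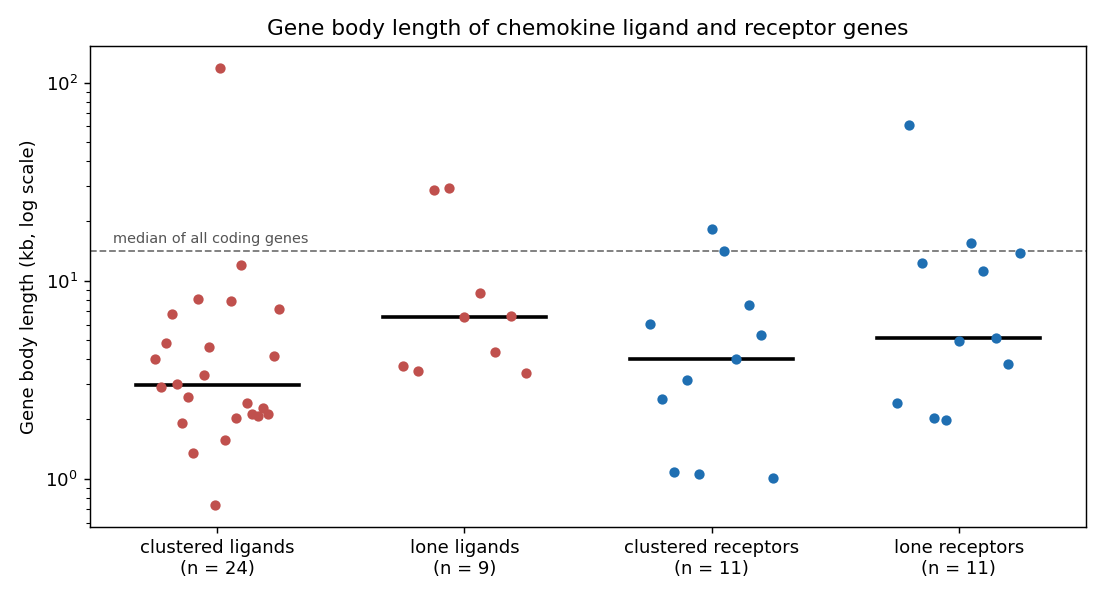
Gene body length (vertical axis, kb, log scale) of each member, as points, for clustered and lone ligands (red) and receptors (blue); black bars are medians and the dashed line is the median of all protein coding genes (14.0 kb). Lone ligands start at 3.40 kb, whereas 14 of the 24 clustered ligands lie below that; the highest clustered ligand is CCL3 at 119 kb.

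Coding introns were longer in lone than in clustered ligands. The longest coding intron of a gene had a median of 1.07 kb in the 24 clustered ligands (113 to 6376 bases) and 3.44 kb in the 9 lone ligands (1137 to 14584 bases). Among the 5 clustered and 8 lone receptors with a coding intron the medians were 2.22 and 1.61 kb. Lone ligands also had a higher median of coding exons, 4 against 3, with 7 of the 9 at 4 or 5 against 9 of the 24 clustered ligands. CXC ligands made up 5 of the 9 lone and 7 of the 24 clustered ligands, and the part of class in this comparison was not tested.

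The bodies of 8 of 55 members (14.5%) overlapped another coding gene, a share near the 16.7% of all protein coding genes. They were CCL3 and CCL4, CXCL10 and CXCL11 in ART3, CXCR6 in FYCO1, ACKR4 with ACAD11, CXCL16 with MED11 and ACKR2 with the unnamed ENSBTAG00000038640. With each member taken by the transcript with the longest coding sequence the count was 6, since CCL3 and CCL4 no longer overlapped. Fragments that fall in such shared stretches cannot be assigned to 1 gene by position alone. CCR10, a receptor of skin-homing T cells, was 0.867 kb from CNTNAP1.

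Annotated untranslated ends differed between the kinds. No 5' untranslated region was annotated for 11 of 55 members in the transcript used, where 39.7% of all protein coding genes had none. These were 4 of 33 ligands (CCL3, CCL16, CCL27 and CX3CL1) and 7 of 22 receptors. CCR2, CCR3, CCR8, CCR10 and XCR1 had an untranslated region at neither end, so that their annotated start was the first base of the coding sequence. These were 5 of 55 members, where 6953 of all 21861 protein coding genes had none at either end. A single coding transcript was annotated for 43 of 55 members, where 62.3% of all protein coding genes had 1. CXCL12 had the most, 4.

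Unnamed coding genes lay inside 4 of the 10 clusters. There were 14, of which 12 lay in ligand and 2 in receptor clusters. They made up 27.5% of the 51 coding genes that lie wholly in the clusters, members included. Of all protein coding genes 19.5% had no symbol. The 2 shares are not comparable, since every member carries a symbol by the rule. The CCL3 to CCL5 cluster held 7, the CXCL8 to CXCL3 cluster 3, and the CCL27 to CCL21 and largest receptor clusters 2 each. Apart from the members, only WFDC18 and FYCO1 were named coding genes wholly inside a cluster.

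A few unnamed genes had the structure of the members around them, and some shared only part of it. Of the 12 in ligand clusters, 2 had 3 or 4 coding exons with phases 1 and 2 in the first 2 coding introns. In the CCL3 to CCL5 cluster, ENSBTAG00000003289 (14387586 to 14389714, minus strand) and ENSBTAG00000010155 (14421208 to 14427667, plus strand) had 3 coding exons with phases 1 and 2. Their second coding exon was 115 bases in both, and they encoded 93 and 92 residues. ENSBTAG00000048626 in the same cluster had coding exons of 68, 111 and 88 bases with phases 2 and 2. Between CCR3 and CCR1, ENSBTAG00000031355 (53199438 to 53206002, plus strand) lay 19.2 kb from CCR1 and had a single coding exon of 1083 bases and 361 residues, within the range of the single-exon receptors. ENSBTAG00000052050, 7.47 kb beyond CCR1, had 2214 coding bases in 1 exon, beyond that range.

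Other unnamed genes did not have the whole structure of the members around them. ENSBTAG00000027534, in the CXCL8 to CXCL3 cluster, had a single coding exon of 1086 bases among ligands with 3 or 4. ENSBTAG00000011961, between CXCL5 and CXCL2, had 6 coding exons and 295 residues. Its first 2 coding introns were in phases 1 and 2, and its second coding exon was 136 bases. In the CCL27 to CCL21 cluster, ENSBTAG00000049217 lay 2.67 kb from CCL27 and had, like it, a last coding exon of 154 bases, while its first 2 were 47 and 60 bases. These genes were not given names here.

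Of 34 textbook pairs of a ligand and its receptor, covering 29 ligands and 19 receptors, 0 lay on the same chromosome. Of all 726 combinations of a member ligand with a member receptor, 23 (3.17%) did, so the count of 0 says little about the pairs. CXCL12 was on chromosome 28 with CXCR4 on chromosome 2 and ACKR3 on chromosome 3. CCL19 and CCL21 were on chromosome 8 with CCR7 on chromosome 19, and CCL27 (chromosome 8) and CCL28 (chromosome 20) were apart from CCR10 on chromosome 19. CCL2 and CCL8 (chromosome 19) were apart from CCR2 on chromosome 22. The list of pairs was written after the positions were known and does not hold every known pair.

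Among genes that act with chemokines, from a list of other symbols, most of those for signalling and for binding or cutting had more coding exons than any member. Of 12 symbols of related receptors 7 were found, and 5 of these had a single coding exon. The list includes former and alternative symbols, so a symbol not found does not show that the gene is absent from the annotation. CCRL2, a chemerin-binding relative, had a coding exon of 1044 bases. PITPNM3 had 18 coding exons. The 18 genes for signalling downstream of the receptors were all found and had 5 to 51 coding exons (median 15.5), among them the inhibitory G protein genes GNAI1, GNAI2 and GNAI3 with 8 each. In GNAI1, GNAI2, GNAI3 and JAK2 the first 2 coding introns were in phases 1 and 2, the combination of most ligands. ARRB2, an arrestin gene that switches these receptors off, lay 14.4 kb from CXCL16. The 6 genes for proteins that bind or cut chemokines had 3 to 26 coding exons, and none lay within 500 kb of a member. Among the other ligand symbols MIF had 2 coding exons and CKLF 4, in phases 0 and 0 for its first 2 introns.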

How the data were processed

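The deposited file used here was the gene annotation of the cattle assembly ARS-UCD1.2, per the file headers; it gives where every feature starts and ends (positions from 1) and the reading frame of coding parts. Cell Ranger ATAC and Cell Ranger are named in the submitters' processing notes, and Signac 1.2.1 in the series text; their other versions and any filter on the annotation are not stated in these sources. Depth per library was not analysed here. Groups were taken from the sample titles, and no comparison between them was made.

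Positions, exons and coding parts were read with Python 3.11.15, pandas 2.3.3 and numpy 2.4.6. Coding exons, phases and untranslated regions came from the transcript with the longest coding sequence. Members within 500 kb formed a cluster, and a gene without a symbol was called unnamed. Gaps were measured from the farthest end reached by earlier members. Genes named outside the members were those inside or next to a cluster or lone gene and those of a list of related genes. The parsing, linkage and phase code was tested on simulated data with known answers. Alternatives were other gaps, 3 members as minimum, flanks of 100 kb, genes of any biotype, the coding span, other transcripts and merging coding parts under 20 bases apart. The members and lists were chosen with earlier results of these data known, and the genes sharing a coding exon pattern, the ligand and receptor pairs and the gene bodies by transcript were added after seeing the data. The values of 1 receptor gene are not reported here by name, although counts and medians include it.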

Additional observations from a re-analysis of the deposited data

How the results depend on the processing

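The number of clustered genes was 29 to 35 under every gap, minimum size and transcript tried, and single coding exons were found in 0 ligands and 9 or 10 receptors. With a gap of at most 100 kb the median gap fell to 29.3 kb, since CXCL3 became a lone gene; without the pair of CCL3 and CCL4 it was 33.3 kb. Counting all exons, or the transcript with the most coding exons, gave ligands a median of 4. Measured over the coding span, the median length was 2.78 kb in ligands and 1.99 kb in receptors, which turns the order of the kinds. Ligands had a median length of 3.59 kb without CCL3 and 3.48 kb by the transcript with the longest coding sequence. Leaving out CCL3 or its pair and taking bodies by transcript were chosen after seeing the data. Unnamed coding genes inside clusters numbered 12 to 14; with 100 kb added on both sides of each cluster there were 21, and unnamed genes of any biotype inside numbered 18. All values rest on 1 annotation of cattle, and genes of a cluster are not independent of each other. No paired analysis was possible because no result comes from samples.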

Other observations

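The structure shared by most ligands was looked for over the whole annotation, with limits set after the members had been seen. These were 3 or 4 coding exons, phases 1 and 2 in the first 2 coding introns, a second coding exon of 106 to 139 bases and at most 450 coding bases. The limits of the second coding exon were the shortest and longest of the 32 ligands other than CXCL17. The count of ligands was thus largely fixed by the limits. The structure was found in 58 protein coding genes (0.265% of all), of which 29 were among the 33 ligands. The other 29 were 12 unnamed and 17 named genes. Of these, 4 lay within 500 kb of a member. They were the unnamed ENSBTAG00000003289 and ENSBTAG00000010155 of the CCL3 to CCL5 cluster, GRO1, and the unnamed ENSBTAG00000009943. The last lay 9.77 kb from XCL1, the ligand of XCR1, on chromosome 16 (36150525 to 36154203, plus strand) with coding exons of 61, 115 and 160 bases; the first 2 coding exons of XCL1 were also 61 and 115 bases. Named genes elsewhere with the structure included SAA3 and SAA4, serum amyloid genes of chromosome 29, and APOC3 and APOA2, apolipoprotein genes, so it is not specific to chemokines.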
